A study of Mus musculus with 38 samples.

Results

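The D0 H3K27ac peaks described here were not called early after SOX9 was switched on in epidermal stem cells (EpdSCs) and were called again later. They were chosen by calls alone. A D0 peak was taken when no H3K27ac peak of the W1 list and none of the W2 list shared 1 bp with it, and a peak of the W6 or of the W12 list did. Of 30268 D0 peaks, 2228 met this rule. Of these, 1069 were regained at W6 only, 758 at W12 only and 401 at both, and these classes are compared below. Peaks that no later list called again, 6067 in number, are called D0-only peaks, and the 10367 found in every list are called constant peaks.

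The cells came from back skin of male *Krt14-rtTA;TRE-Sox9* mice, in which the *Krt14* promoter limits the doxycycline (DOX)-dependent activator, and with it MYC-tagged SOX9, to keratin 14-expressing epithelium. All groups carry both transgenes. D0 cells were taken without induction, and W1, W2 and W6 cells after 1, 2 and 6 weeks of DOX begun at postnatal day 21. Weeks of DOX and age of the mice rise together and cannot be told apart. No list of uninduced skin at a later age was available. W12 cells came from newborn skin that was grafted onto Nude females and then induced for 12 weeks, so that time and grafting cannot be told apart at W12. EpdSCs were sorted as integrin α6-high, CD34-negative, Ly6A-high cells after other lineages had been removed. Histone marks were measured by MINT-ChIP, a chromatin immunoprecipitation on pooled, barcoded chromatin. For W2 and W12, the labels put W2 replicate 1 and both W12 replicates in the same barcoded library of each mark and digest, whereas D0, W1 and W6 have libraries of their own. Each mark has 1 list per time point that pools its replicates and its high and low nuclease digests, so that no spread between animals can be given and no test over samples was possible. Intervals in brackets are exact 95% Clopper-Pearson intervals for a share or Newcombe intervals for a difference of shares. They cover counting error only.

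H3K27ac marks active enhancers and promoters. H3K4me1 marks enhancers whether or not they are active, and an enhancer that carries H3K4me1 without H3K27ac is commonly described as primed. EpdSCs renew the interfollicular epidermis and rely on factors such as TP63, GATA3, KLF and AP1 proteins, whereas SOX9 belongs to the stem cells of the hair follicle. A peak that loses H3K27ac may therefore lose or keep H3K4me1 in the meantime, and H3K4me1 was not used to choose the peaks.

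The sequences below are 300 bases around the D0 summit, plus strand, GRCm38. The first 3 are a high-scoring member of each class, and the other 5 lie near genes taken up further on. Capitals mark matches, on either strand, to the letters searched: AGATAA for the motif of GATA factors, ACAATG as well as ACAAAG for SOX factors, TGTGGT for RUNX, TGANTCA for AP1, CCNCNCCC for KLF, GCCNNNGGC for TFAP2, TTGCNNAA for CEBP, GGAATG for TEAD, CCGGAA for ETS, and the motif of TP63. Matches that overlap run together.
Gm10800 (W6 only), chr2:98664958-98665257: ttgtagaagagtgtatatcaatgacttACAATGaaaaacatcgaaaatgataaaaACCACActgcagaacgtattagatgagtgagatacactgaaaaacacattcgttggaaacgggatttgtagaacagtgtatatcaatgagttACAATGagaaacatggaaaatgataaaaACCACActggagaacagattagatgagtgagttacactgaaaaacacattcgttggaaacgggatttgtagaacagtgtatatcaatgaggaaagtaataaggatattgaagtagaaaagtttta
Atg10 (W12 only), chr13:91249980-91250279: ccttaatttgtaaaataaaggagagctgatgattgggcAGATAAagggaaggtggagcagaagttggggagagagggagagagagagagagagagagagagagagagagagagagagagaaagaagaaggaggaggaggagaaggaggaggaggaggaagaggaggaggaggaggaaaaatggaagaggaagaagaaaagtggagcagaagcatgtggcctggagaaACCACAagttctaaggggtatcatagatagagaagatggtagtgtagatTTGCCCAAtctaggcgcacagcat
Ssbp2 (both), chr13:91461208-91461507: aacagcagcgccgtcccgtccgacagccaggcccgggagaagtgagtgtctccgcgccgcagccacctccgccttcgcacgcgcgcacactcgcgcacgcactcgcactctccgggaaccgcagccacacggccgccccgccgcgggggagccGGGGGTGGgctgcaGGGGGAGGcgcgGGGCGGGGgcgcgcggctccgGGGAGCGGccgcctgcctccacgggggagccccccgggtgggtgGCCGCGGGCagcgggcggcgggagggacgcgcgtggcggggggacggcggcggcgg
Gata3 (W6 only), chr2:9659106-9659405: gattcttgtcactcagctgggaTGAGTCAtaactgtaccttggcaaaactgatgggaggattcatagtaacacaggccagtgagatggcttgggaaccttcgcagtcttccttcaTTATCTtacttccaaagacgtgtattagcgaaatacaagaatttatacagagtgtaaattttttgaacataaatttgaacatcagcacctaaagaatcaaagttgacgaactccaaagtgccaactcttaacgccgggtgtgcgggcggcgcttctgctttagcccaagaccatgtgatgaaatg
Vegfa (W12 only), chr17:45905499-45905798: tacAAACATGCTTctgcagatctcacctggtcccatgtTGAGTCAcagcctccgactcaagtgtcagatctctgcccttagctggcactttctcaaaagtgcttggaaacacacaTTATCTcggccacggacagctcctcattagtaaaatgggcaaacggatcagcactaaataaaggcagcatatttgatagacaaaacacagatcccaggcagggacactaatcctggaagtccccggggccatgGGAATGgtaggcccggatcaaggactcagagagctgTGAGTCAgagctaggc
Ivl (W12 only), chr3:92579592-92579891: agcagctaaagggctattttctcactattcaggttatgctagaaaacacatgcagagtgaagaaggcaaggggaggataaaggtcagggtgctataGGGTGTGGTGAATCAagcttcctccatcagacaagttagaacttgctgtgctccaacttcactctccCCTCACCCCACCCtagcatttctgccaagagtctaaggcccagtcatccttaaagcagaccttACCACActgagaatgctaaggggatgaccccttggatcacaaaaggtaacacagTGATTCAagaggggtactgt
Cdon (both), chr9:35421123-35421422: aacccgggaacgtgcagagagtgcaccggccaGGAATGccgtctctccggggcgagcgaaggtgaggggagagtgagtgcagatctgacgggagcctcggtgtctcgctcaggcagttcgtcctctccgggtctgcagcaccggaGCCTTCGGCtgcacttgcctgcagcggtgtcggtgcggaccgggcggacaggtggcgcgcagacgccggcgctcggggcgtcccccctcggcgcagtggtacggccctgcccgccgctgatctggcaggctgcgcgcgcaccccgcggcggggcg
Tgfbr2 (both), chr9:116193860-116194159: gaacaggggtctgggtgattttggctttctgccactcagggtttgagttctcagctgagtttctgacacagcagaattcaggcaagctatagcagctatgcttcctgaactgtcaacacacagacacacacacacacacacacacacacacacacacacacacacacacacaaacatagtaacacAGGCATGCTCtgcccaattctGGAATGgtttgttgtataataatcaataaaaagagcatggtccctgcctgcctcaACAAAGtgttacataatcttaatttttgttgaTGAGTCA
The *Gm10800* window repeats its SOX and RUNX letters in tandem. The *Ssbp2* window holds 5 matches, all to KLF or TFAP2 letters, in a CpG-rich stretch of 81.7% GC. The *Vegfa* window carries AP1 letters 2 times, with TP63 letters ahead of the first and GATA and TEAD letters between them, and the *Ivl* window carries AP1, RUNX and KLF letters, each 2 times or more.

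Loss and regain were set against all D0 peaks first. Of all D0 peaks, 27.4% had no overlap at W1 and none at W2, and 68.4% had one at W6 or W12. Lost and then regained peaks made up 7.36% of the list. Among the 8295 peaks lost at both W1 and W2, 26.9% (25.9 to 27.8) were called again at W6 or W12, against 93.4% (93 to 93.8) of the peaks called at both W1 and W2. Peaks missing at W1 but called at W2 were found again in 73%, and peaks called at W1 but missing at W2 in 50.5%. Among lost peaks, calls at W6 and at W12 went together. The rule used these same calls, so this is given as a description. Of the 1470 peaks back at W6, 27.3% (25 to 29.6) were also called at W12, against 11.1% (10.4 to 11.9) of the 6825 lost peaks that were not back at W6.

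Gaps of this kind were not rare among other orders of calls. The pattern present at D0, W1 and W12 but missing at W2 and W6 counted 367 peaks, close to the 401 that were missing at W1 and W2 and present at W6 and W12. Another 821 peaks were shared by D0 and W2 alone and 1671 by D0 and W1 alone, beside the 1069 of D0 and W6 and the 758 of D0 and W12.

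**Figure D1:**
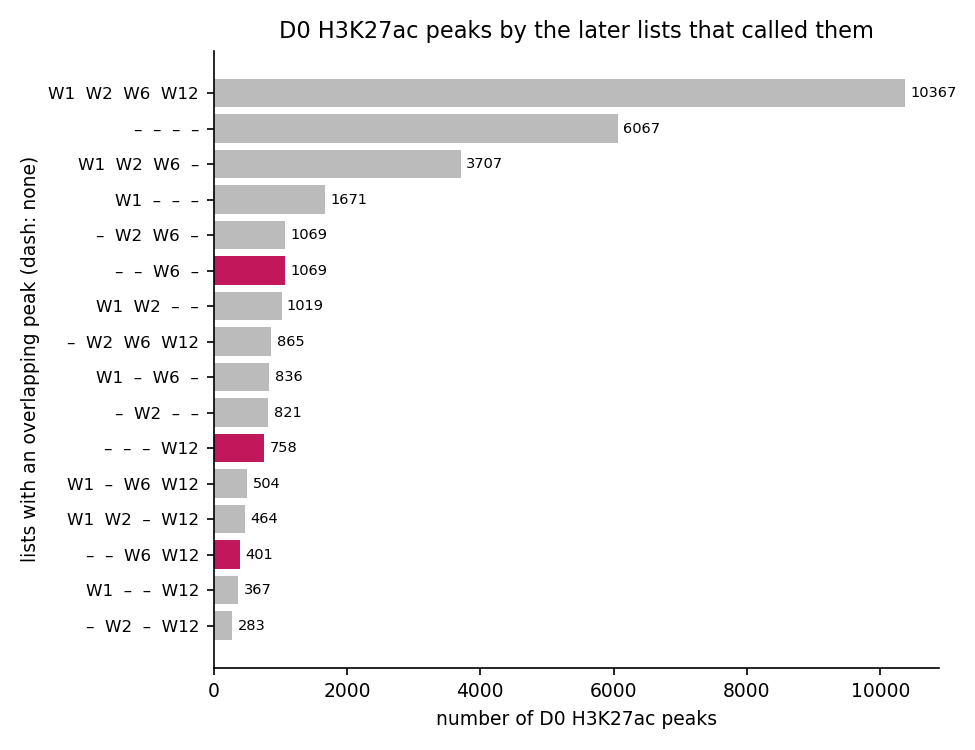
Number of D0 H3K27ac peaks (x axis) for each of the 16 combinations of later lists that called them again (y axis, a dash marks a list without an overlapping peak). The coloured bars are the 1069, 758 and 401 peaks lost at W1 and W2 and regained. The longest bars are the 10367 peaks found in every list and the 6067 found in no later one.

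Regained peaks were weak at D0. These values come from the list that the rule used and are given as a description. Their median fold enrichment at the summit was 4.66 (quartiles 4.0 and 6.0), between the 4.02 of D0-only peaks and the 12 of constant peaks. Peaks regained at both time points stood at 5.33, and those regained once at 4.66. Median widths were 452 bp for regained, 378 bp for D0-only and 1245 bp for constant peaks. Of the regained peaks, 486 (21.8%, 20.1 to 23.6) exceeded the median fold enrichment of all D0 peaks, against 7.07% of D0-only peaks.

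Depth moved with these losses. From the steps between fold enrichments, the mean background pileup per base was 0.501 at D0. It came to 0.299 for W1, to 0.425 for W2, to 0.677 for W6 and to 0.411 for W12, so that W1 was the shallowest list and W6 the deepest. Scaled to the depth of W1, the D0 pileup of 694 regained peaks (31.1%) was below 3, the smallest pileup called there. At W2, where the smallest was 4, this held for 193 (8.66%), and for D0-only peaks the shares were 50% at W1 and 18.9% at W2. An unchanged peak would thus have fallen below the smallest pileup called at W1 for that share of regained peaks. Reaching that smallest pileup does not make a peak detectable, and the median scaled pileup of regained peaks at W1 was 3.58. The restriction that follows therefore does not make the lists equal in depth. The word "lost" is used here only for the missing call. Restricted to the 24019 D0 peaks whose scaled pileup reached the smallest called pileup in all 4 later lists, 1534 peaks were lost and regained, with 47.1% back at W6 only and 33.3% at W12 only. In bulk chromatin, fewer cells carrying a mark and less of it per cell cannot be told apart.

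Some lost peaks had a W1 or W2 peak close by. A W1 or W2 peak lay within 1000 bp of 794 regained peaks (35.6%, 33.6 to 37.7) and of 23.7% of D0-only peaks, and within 100 bp of 114 (5.12%) and of 3.07%. Whether such a neighbour is the same peak with moved edges was not tested. A distance within 1000 bp was found for 40.6% of peaks regained at W6 only, 38.4% at both and 27.2% at W12 only. The 3 members nearest to the limit were peaks by *Mapt* and *Prss8* that abutted a W1 or W2 peak and a peak by *Nedd9* 3 bp away from one. Just outside it were peaks by *Flrt2*, *Fancc* and *Mical1*, which shared 2, 3 and 4 bases with a W1 or W2 peak.

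What came back mostly covered the same place. At W6, 82.1% (80.1 to 84) of the regained peaks overlapped a W6 peak over at least 50% of the shorter interval, and the W6 summit lay a median of 172 bp from the D0 summit. At W12 the corresponding values were 77.7% (75.1 to 80) and 193 bp. Constant peaks overlapped this far in 98.2% at W6 and in 94.6% at W12, with summits 117 and 164 bp apart. The returning peaks ranked low at W6, at the percentile 31.8 of that list by fold enrichment, and in the middle at W12, at 52.6. Relative to each list's background, the pileup of the returning peak was a median of 0.966 times the D0 pileup at W6 and 1.22 times at W12, while constant peaks stood at 0.793 and 0.710. Selection bears on these ratios, since a peak that had stayed weak at W6 or W12 would not have been called.

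H3K4me1 was present over most regained peaks throughout. Of the 2228, 94.6% overlapped an H3K4me1 domain at D0. While H3K27ac was missing, 92.5% did so at W1 and 90.4% at W2, and later 94.5% at W6 and 93% at W12. D0-only peaks began at 93% and stood at 88.6%, 80.3%, 84.2% and 84.1%. H3K4me1 was called at both W1 and W2, while H3K27ac was not, over 1971 regained peaks (88.5%, 87.1 to 89.8) and over 78.3% (77.3 to 79.4) of D0-only peaks, a difference of 10.1 points (8.40 to 11.8). All D0 peaks stood at 90.2% and constant peaks at 93.5%. A domain at D0, none at W1 and W2, and one again at W6 or W12 was found over 28 regained peaks (1.26%), near the 1.53% of D0-only and the 0.849% of all D0 peaks. Another 79 (3.55%) had no domain in any list, against 5.19% of D0-only and 2.0% of all D0 peaks.

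The classes differed at W2. Peaks regained at W6 only had H3K4me1 in 94.2% (92.6 to 95.5) at W2 and in 91.2% at both W1 and W2, and peaks regained at both W6 and W12 in 91% and 90.3%. Peaks regained at W12 only had it in 84.8% (82.1 to 87.3) and 83.6%. The gap between W6 only and W12 only at W1 and W2 was 7.57 points (4.49 to 10.8). It shrank to 2.96 points (-0.205 to 6.41) when all lists were limited to peaks with −log10 q of at least 3, and to 2.95 points (-0.165 to 6.25) without summits on repeat-masked bases, intervals that include 0. By W6, before H3K27ac was called there again, 92.2% (90.1 to 94) of the W12-only peaks overlapped H3K4me1. Of the 69 W12-only peaks that had a domain at D0 and none at W2, 57 (82.6%, 71.6 to 90.7) had one at W6 and 63 (91.3%) at W12. Of the 832 such D0-only peaks, 446 (53.6%, 50.1 to 57) had one at W6 and 490 (58.9%) at W12. After H3K27ac was no longer called at W12, 93.1% of the W6-only peaks still lay in an H3K4me1 domain.

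**Figure D2:**
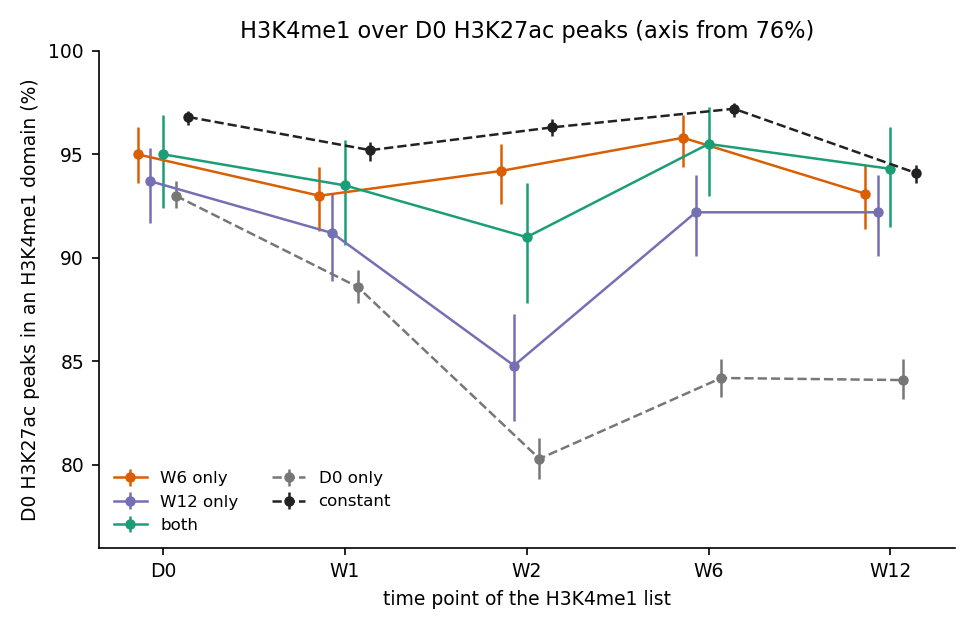
Share of D0 H3K27ac peaks that overlap an H3K4me1 domain (y axis, percent, starting at 76) in the list of each time point (x axis), by class, with exact 95% intervals of counting error. The W12-only peaks drop to 84.8% at W2 and stand at 92.2% at W6, whereas D0-only peaks drop to 80.3% and stand at 84.2%.

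The difference in H3K4me1 between regained and D0-only peaks depended on strength. Lost peaks were split into 4 groups by D0 score. In the weakest group, with scores of 13 to 25, H3K4me1 was kept at W1 and W2 over 88.3% of regained and 74.2% of D0-only peaks, a difference of 14.1 points (11.1 to 16.8). For scores of 26 to 36 the difference was 11.1 points (7.56 to 14.3). It was 3.23 points (-1.27 to 7.22) for scores of 37 to 47 and 2.01 points (-1.47 to 5.45) above that, so that no difference was detectable among the stronger lost peaks. The share regained rose over the same groups from 18.5% (17.3 to 19.8) to 25.7%, 29.3% and 46.8% (44.2 to 49.3). Seen from the other side, 29.3% (28.2 to 30.4) of the lost peaks with H3K4me1 at both W1 and W2 were regained, 12.5% (10.1 to 15.1) of the 714 with H3K4me1 at W1 alone, 27% (20.3 to 34.5) of the 163 with H3K4me1 at W2 alone, and 17.9% (15.1 to 20.9) of the 694 with neither. The interval for W2 alone includes the share for both weeks. Among the 714, 32 were back at W6 and 70 at W12.

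**Figure D3:**
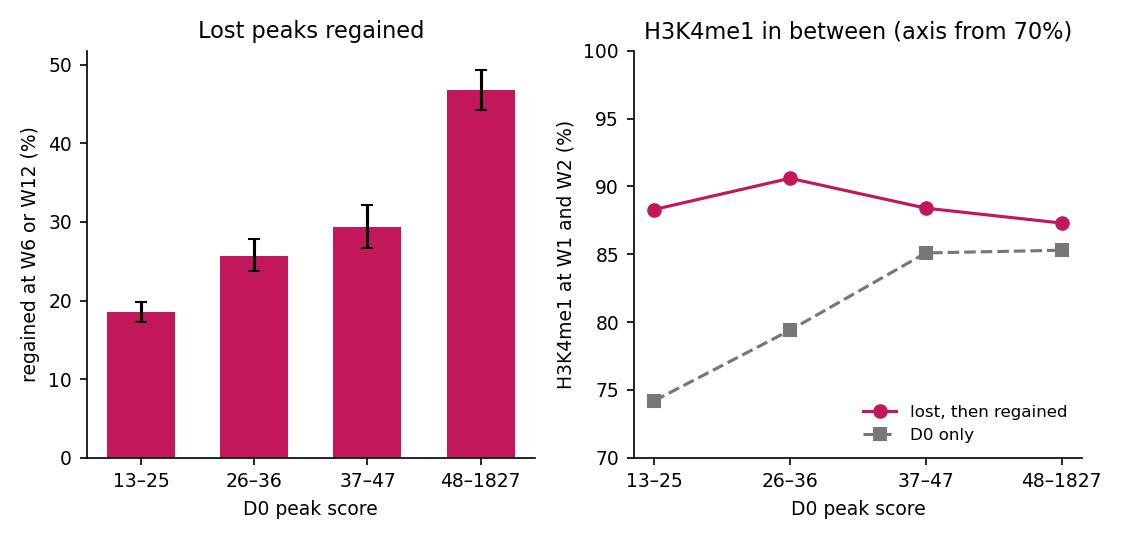
D0 H3K27ac peaks lost at W1 and W2, in 4 groups of D0 score (x axes). Left, the percent regained at W6 or W12 with exact 95% intervals, from 18.5% to 46.8%; right, the percent with H3K4me1 at both W1 and W2 (axis starting at 70), where regained and D0-only peaks are 14.1 points apart in the weakest group and 2.01 points apart in the strongest.

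H3K4me1 domains narrowed over D0 peaks in general. Over all D0 peaks the median domain measured 7600 bp at D0 and 6400 bp at W1 and W2, and 6000 bp by W12. The median domain over a regained peak measured 7200 bp at D0, 5600 bp at W1 and at W2, and 6000 bp at W6 and W12. Over D0-only peaks it went from 7600 bp to 5400 bp at W1 and W2, and later stood at 4800 bp (W6) and 5000 bp (W12). Among peaks inside a domain in all 5 lists, the W6 domain was wider than the D0 domain over 36.4% (33.3 to 39.6) of W6-only, 39.4% of both-class and 22.3% (19.1 to 25.7) of W12-only peaks. The W12 domain was wider over 31.9%, 40.6% and 31.4% (27.8 to 35.2) of them. For D0-only peaks these shares were 20.5% and 20.7%. The gap between W6-only and W12-only peaks was already there while H3K27ac was missing. It was 29.1% (26.3 to 32.2) against 22.3% (19.1 to 25.7) at W1 and 34.6% (31.5 to 37.7) against 23.1% (19.8 to 26.6) at W2. The W12-only peaks began with wider domains, with a D0 median of 8400 bp against 7600 bp for W6 only. Over W12-only peaks the share was higher at W12 than in the 3 lists before it, and constant peaks stood at 39.4% at W6 and 34.1% at W12.

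H3K4me1 in culture set D0-only peaks apart from regained ones. Cultured EpdSCs from *Krt14-rtTA* mice carried a DOX-inducible SOX9 that was wild type (WT), without the DNA-binding HMG domain (ΔHMG) or without the transactivation domain (ΔTA). Without DOX, 68.8% (66.8 to 70.7) of regained and 48.9% (47.6 to 50.1) of D0-only peaks overlapped a culture H3K4me1 domain, a difference of 20 points (17.6 to 22.2), and constant peaks stood at 65.2% and all D0 peaks at 62.1%. Among distal peaks the shares were 71.7% of regained, 47.6% of D0-only, 84.3% of constant and 66.9% of all D0 peaks. The difference from D0-only peaks was present in every score group, from 21.7 points (17.7 to 25.6) in the weakest to 11.6 points (6.74 to 16.3) in the strongest. Peaks regained at both time points had the highest share, 75.1% (70.5 to 79.2), against 67.5% for W6 only and 67.3% for W12 only. With WT SOX9 induced, the shares were 75.6%, 65% and 59.1% (55.5 to 62.6) in that order. With ΔHMG-SOX9 and ΔTA-SOX9, the W12-only peaks stood at 64.6% and 64.9%. The depth of the culture lists is unknown, and the conditions came from the same pooled libraries.

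The classes lay at different places in the genome. Of the regained peaks, 68.6% (66.7 to 70.6) were distal, that is over 2500 bp from any annotated start site, between 83% of D0-only and 34% of constant peaks. W12-only peaks were distal in 81.8% (78.9 to 84.5), W6-only peaks in 61.1% (58.1 to 64) and peaks regained at both in 63.8%. The difference between W12 only and W6 only was 20.7 points (16.6 to 24.6). Of the lost peaks within 2500 bp of a start site, 32.5% (30.3 to 34.7) were back at W6 and 16.4% (14.7 to 18.2) at W12, whereas of distal lost peaks 13.8% and 13.3% were. By their summit, 56.3% of regained peaks were intronic, 31.8% intergenic and 11.9% exonic. The lower H3K4me1 of W12-only peaks was seen in the distal ones. H3K4me1 was kept at W1 and W2 in 82.7% (79.5 to 85.6) of distal W12-only peaks and 95.3% (93.3 to 96.8) of distal W6-only peaks, but in 87.7% and 84.9% of the proximal ones.

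Base composition differed between the classes. At least 10 CpG dinucleotides in 300 bp were found in 26.8% (24.1 to 29.5) of W6-only, 23.4% of both-class and 8.18% (6.33 to 10.4) of W12-only peaks, against 6.08% of D0-only, 55.7% of constant and 31.7% of all D0 peaks. Median GC content was 51.3%, 50.7%, 48.3%, 48% and 56% in the first 5 of these groups. Among proximal peaks alone, 10 or more CpG were in 55.8% (50.8 to 60.6) of W6-only and 23.2% (16.4 to 31.1) of W12-only peaks. Of all proximal regained peaks 48.8% held them, against 18.3% of D0-only and 79.4% of constant ones. Among distal peaks the shares were 8.27% (6.27 to 10.7) for W6 only and 4.84% (3.29 to 6.84) for W12 only. Summits on repeat-masked bases made up 17.9% of regained, 19.2% of D0-only and 10.4% of constant peaks.

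Motif letters differed less than position did. The GC-rich letters were more frequent in regained than in D0-only peaks, with ETS letters in 7.81% against 3.63%, KLF letters in 33.1% against 27.2% and TFAP2 letters in 13.6% against 8.69%. All D0 peaks held them in 10.1%, 36.9% and 14.3%. Among distal peaks alone the gaps were smaller, with 4.97% against 3.24% for ETS, 27.9% against 25.9% for KLF and 10.1% against 7.86% for TFAP2. Among proximal peaks the shares were 14.0% against 5.54%, 44.6% against 33.3% and 21.0% against 12.7%. GATA letters were in 11.4% of regained and 14.7% of D0-only peaks, a difference of -3.24 points (-4.79 to -1.60), and in 11.1% of all D0 peaks. Among distal peaks alone it was -1.92 points (-3.84 to 0.137). SOX letters were in 29.4% against 33.3%, RUNX letters in 19.9% against 22.6% and TP63 letters in 11% against 12.8%, with 29.1%, 18.8% and 10.4% of all D0 peaks. Among distal peaks alone the SOX share was 33.3% in both, with RUNX letters in 21.5% against 22.8% and TP63 letters in 12.2% against 13.1%. Among proximal peaks the gaps were wider. There, SOX letters were in 20.9% (17.9 to 24.1) of regained and 33.3% (30.5 to 36.3) of D0-only peaks. RUNX letters were in 16.5% against 21.7% of them, TP63 letters in 8.30% against 11.6% and GATA letters in 6.72% against 10.6%. Shares of CEBP letters (11.3% and 10.5%, all D0 peaks 9.73%) and TEAD letters (16.2% and 16.9%, all D0 peaks 15.1%) differed by less than counting error.

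AP1 letters separated the classes. They were in 13.6% (11.2 to 16.2) of W12-only, 14.2% (10.9 to 18) of both-class and 7.58% (6.06 to 9.33) of W6-only peaks, beside 8.92% of all D0 peaks. The difference between W12 only and W6 only was 6.01 points (3.16 to 9.0), and among distal peaks alone it was 4.21 points (0.709 to 7.75). Peaks back at W12, with or without W6, thus held AP1 letters more often than those back at W6 only. The share of regained peaks as a whole, 10.8%, was close to the 10.7% of D0-only peaks. A match is a description of the letters in the window and not of a bound factor.

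**Figure D4:**
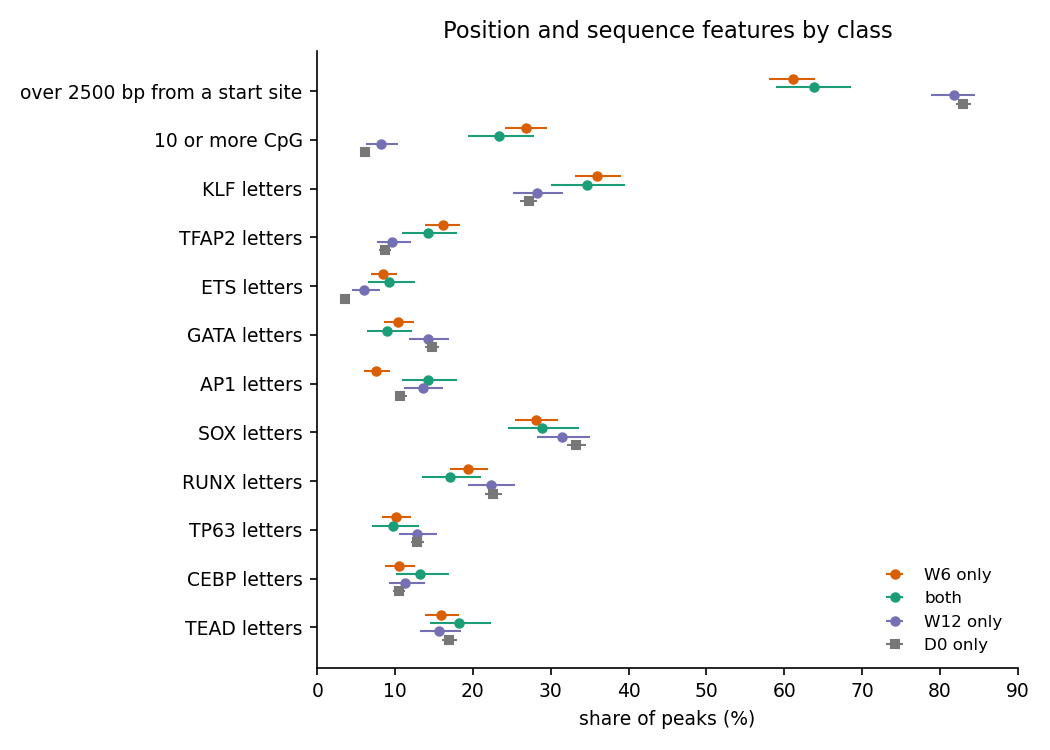
Share of peaks (x axis, percent) that are over 2500 bp from a start site, hold 10 or more CpG or hold the letters of each motif within 300 bp of the summit, by class, with exact 95% intervals. W6-only and both-class peaks lie together for distance and CpG, W12-only peaks lie with D0-only peaks, and for AP1 letters W6 only (7.58%) is apart from W12 only (13.6%) and both (14.2%).

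Fold enrichments given here and below were not scaled to the depth of each list. Depth differed between the lists, so small differences in fold enrichment are not read as changes of the mark. Each later value is that of the overlapping peak, whose summit can lie outside the D0 peak. The top-scoring members by D0 score were unlike the rest. In the W6-only class they lay nearest to *Gm10800*, *Cr2*, *Gphn*, *Cdk8* and *Atp6v1g3*. The first 4 were between 294 and 433 bp wide, and their fold enrichments at D0 were 9.38, 52.3, 18.6 and 25.3, with 6.03, 20.7, 23.1 and 30.7 at W6. H3K4me1 over them was absent (*Gm10800*) or called as domains of 1400 bp or less. Those by *Cr2*, *Gphn* and *Cdk8* were thus high at D0 and W6, whereas the one by *Gm10800* was below the W6 median of 6.56, and no other list called any of the 4. The interval by *Gm10800* lies in a stretch of mouse satellite-like repeats that draws excess reads in many data sets. Whether they reflect the mark was not tested. *Atp6v1g3*, which encodes a proton pump subunit, had an intergenic peak of 735 bp with 24 at D0 and 5.96 at W6, within domains of 3000 to 5800 bp at every time point.

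The leading W12-only peaks had broader domains. They lay nearest to *Tslp*, an epithelial cytokine (fold enrichment 16.7 at D0, 4.25 at W12), *Atg10*, an autophagy enzyme (16 and 14.2), *Armh1* (15.3 and 7.79), *Vegfa*, the angiogenic growth factor (14.7 and 12), and *Ndufa4l2* (13.3 and 7.08). The W12 summit by *Tslp* lay 467 bp from the D0 summit, outside the D0 peak of 580 bp. The *Vegfa* peak, shown above, is intergenic and 125526 bp from the start site. Its W12 summit was 7 bp from the D0 summit, and its H3K4me1 domain measured 7400 bp at D0. It was 3800 bp wide at W1 and 4400 bp at W2, then 6200 bp at W6 and 9800 bp at W12. H3K4me1 was thus present throughout, narrowest at W1, and wider at W12 than at D0. Of these 5 peaks, only the one by *Armh1* had no H3K4me1 domain at W2.

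Among the leading peaks regained at both, 3 covered a start site. These were *Ssbp2*, a cofactor of LIM-domain proteins (20.7 at D0, 10.1 at W6, 6.38 at W12), *Frat1*, a regulator of Wnt signalling (18.7, 14.3 and 4.96), and *Pex7*, a peroxisomal import receptor (18, 10.7 and 5.67). Another lay by *Armh1* (17.3, 8.35 and 9.92), close to the W12-only peak named above. These 4 had their highest fold enrichment at D0. The *Frat1* peak is 1 of the 28 over which H3K4me1 was lost and called again, since its domain of 1000 bp at D0 was gone from the W1 and W2 lists, and a domain of 1000 bp was called anew at W6 and one of 1200 bp at W12.

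**Figure D5:**
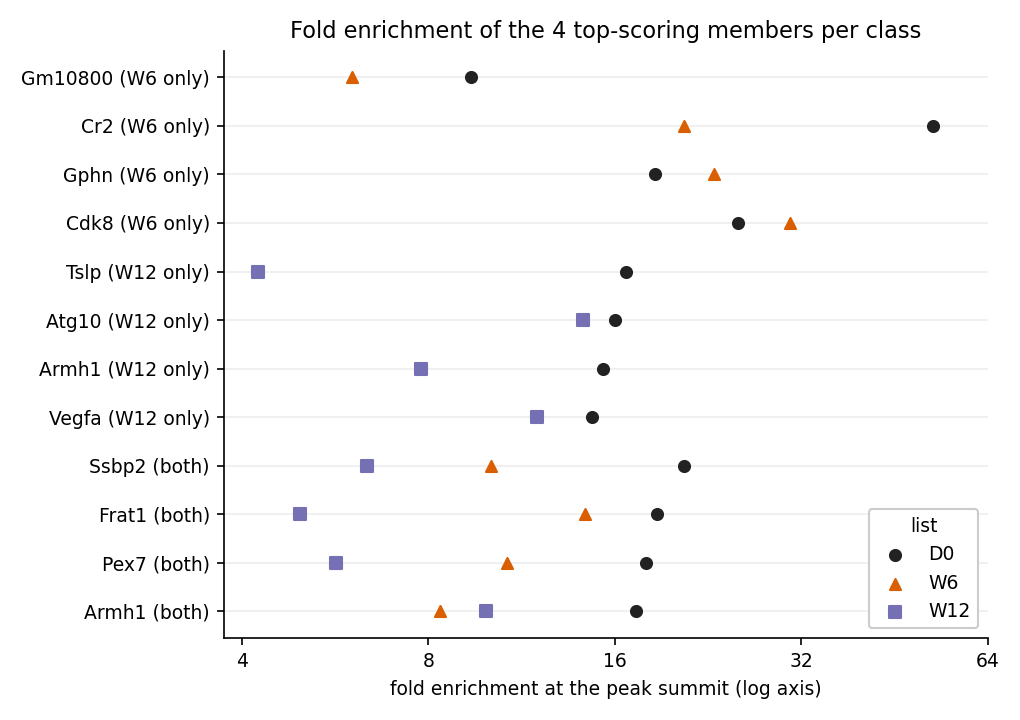
Fold enrichment at the summit (x axis, log scale) of the 4 regained peaks with the highest D0 score in each class, named by the nearest gene (y axis), at D0, W6 and W12. A missing symbol means that the list held no overlapping peak. Fold enrichments are not scaled to the depth of each list. On this scale *Gphn* and *Cdk8* are higher at W6 than at D0, and the other 10 are highest at D0.

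Regained peaks were spread over many genes. They were nearest to 1774 of the 11009 protein-coding genes that are nearest to any D0 peak (16.1%), and D0-only peaks were nearest to 32.0%. Of the 1774 genes, 1448 had 1 regained peak, 244 had 2 and 82 had 3 or more. The most were by *Gata3*, a transcription factor of epidermis and hair follicle, with 8 of 46 D0 peaks. All 8 were intergenic and lay 48920 to 414756 bp from its start site. Genes here and below only name the nearest start site, which for the *Gli3* peak was 324217 bp away. *Capzb*, which encodes an actin-capping subunit, had 7 of 14, *Spred2*, an inhibitor of Ras-ERK signalling, 7 of 29, the transcript 3110018I06Rik 6 of 22, and *Gja1*, the gap junction protein connexin 43, 6 of 23. At *Gja1*, 5 of the 6 were regained at W12 only and 1 at both. At *Gata3*, 4 were regained at W6 only, 3 at W12 only and 1 at both. Its 3 strongest stood at 12.7, 12 and 10.7 at D0. The first was 5.37 at W6, where the overlapping W6 peak was 311 bp wide with its summit 1103 bp away, the second was 6.56 at W6 and 4.96 at W12, and the third 4.25 at W12.

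Epidermal transcription factors had regained peaks in 11 of 22 genes with a D0 peak (50%, 28.2 to 71.8), above the 16.1% of all genes. They also have many peaks, and counted by peak the share was 28 of 308, or 9.09%, beside 7.36% of all D0 peaks. Besides *Gata3* these were *Tfap2c* (7.33 at D0, 5.37 at W6, 8.50 at W12) and the barrier regulators *Grhl1* (6.66 at D0, 5.32 at W12) and *Grhl3* (6.66 and 6.38), with *Trp63*, *Klf5*, *Cebpa*, *Cebpb*, *Ehf*, *Grhl2* and *Tfap2a* also in the list. Genes of basal keratins and adhesion had regained peaks in 9 of 26, at 11 of 210 peaks (5.24%). Examples were *Perp*, a desmosomal protein (6.66, 5.96 and 4.96 at D0, W6 and W12), the E-cadherin gene *Cdh1* (6.0, 5.37 and 3.54), the plakophilin gene *Pkp3* (6.0, 3.21 and 4.36) and *Dst*, a hemidesmosomal linker (6.0 at D0, 4.77 at W6). The *Perp* peak lay 96 bp from a W1 peak and 49 bp from a W2 peak. Its W12 summit lay 771 bp from the D0 summit, outside the D0 peak of 975 bp.

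Differentiation genes had regained peaks in 6 of 22, at 7 of 70 peaks (10%), and none of these 7 was in the W6-only class. Of all 2228 regained peaks, 1069 were in the W6-only and 758 in the W12-only class. The transglutaminase genes *Tgm1* (7.33 at D0, 4.77 at W6, 7.08 at W12) and *Tgm3* (7.33 at D0, 4.25 at W12), the protease gene *Asprv1* (5.33, 10.7 and 12) and *Ivl*, which encodes the envelope protein involucrin (4.66 at D0, 7.08 at W12), were the leading 4. *Asprv1* and *Ivl* were higher at W12 than at D0. The D0 peak by *Asprv1* was 333 bp wide, and the W6 and W12 summits lay 712 and 579 bp from its summit. These later values by *Asprv1* thus belong to summits outside the D0 peak. Hair follicle stem cell genes had regained peaks in 5 of 20, at 9 of 216 peaks (4.17%), none in the W12-only class. Among them were *Nfib* (6.0 at D0, 4.77 at W6), *Lrig1* (6.0 and 4.17), *Tcf7l2* (4.0 and 4.77) and *Barx2* (4.0 at D0, 5.37 at W6, 4.96 at W12). With only 7 and 9 peaks, the missing classes are given as a description. Whether these gene lists differ from all regained peaks in class was not tested.

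Signalling genes showed both classes. In the Wnt pathway, 11 of 33 genes had a regained peak (14 of 168 peaks, 8.33%), and the ligand genes *Wnt5a* (10.7 at D0, 6.38 at W12) and *Wnt7b* (10 and 4.25) were regained at W12 only, over or within 160 bp of a start site, whereas peaks by the feedback inhibitor *Axin2* (7.33 at D0, 4.17 at W6) and the ligand *Wnt10a* (6.66 and 13.1) were regained at W6 only. In the Notch pathway 9 of 16 genes had one (9 of 121 peaks, 7.44%), with the DNA-binding effector *Rbpj* at 8.66, 6.56 and 10.6 at D0, W6 and W12, the ligand *Dll1* at 6.0 and 4.81 (W12), the receptor *Notch3* at 5.33 and 5.37 (W6) and the glycosyltransferase *Lfng* at 5.33 and 5.96 (W6). The *Lfng* peak lay 4 bp from a W2 peak and the *Dll1* peak 81 bp from a W1 peak. The W12 summit by *Rbpj* lay 654 bp from the D0 summit, outside the D0 peak of 446 bp. Also outside the D0 peak were the W6 summit by *Lfng*, 287 bp away, and the W12 summit by *Wnt7b*, 277 bp away. Among EGF receptors and ligands 7 of 17 had one (13 of 112 peaks, 11.6%), with the ligands *Ereg* at 8.66 and 4.96 (W12) and *Epgn* at 8.0 and 4.77 (W6), the sheddase *Adam10* at 6.66 and 3.82 (W6) and the receptor inhibitor *Errfi1* at 6.0 and 4.77 (W6). The W6 summit by *Adam10* lay 289 bp from the D0 summit, outside the D0 peak of 354 bp.

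In the Hedgehog pathway 4 of 14 genes had a regained peak (4 of 62 peaks, 6.45%), 3 of them regained at both W6 and W12. The coreceptor *Cdon* had one over its start site (11.3, 9.54 and 3.54 at D0, W6 and W12), and the coreceptors *Gas1* (4.0, 6.56 and 6.38) and *Boc* (6.0 at D0, 5.37 at W6) and the transcription factor *Gli3* (4.66, 4.17 and 8.50) had distal ones. The *Gli3* peak had no H3K4me1 in any list. The W6 summit by *Gas1* lay 453 bp from the D0 summit, outside the D0 peak of 278 bp. For TGF-β and BMP genes the count was 8 of 31 (11 of 215 peaks, 5.12%). The receptor gene *Tgfbr2*, shown above, stood at 7.33, 6.56 and 7.08, the ligand *Bmp2* at 8.66 at D0 and 4.17 at W6, *Tgfb2* at 4.66 and 5.67 (W12) and *Tgfb3* at 4.66 and 4.77 (W6). The *Bmp2* peak shared only 3.66% of the shorter interval with its W6 peak. The W6 summits by *Bmp2* and *Tgfb3* lay outside the D0 peak, 1065 and 230 bp from the D0 summit.

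AP1 genes had regained peaks in 5 of 12 (10 of 84 peaks, 11.9%). *Jun* stood at 7.33 at D0 and 9.96 at W12, *Atf3* at 6.66 and 3.68 (W6), *Mafk* at 5.33 and 5.37 (W6) and *Fosl2* at 4.66 and 3.54 (W12). None of the 4 RUNX genes, with 17 D0 peaks, had a regained peak. Cell cycle genes had them in 5 of 17 (8 of 66 peaks, 12.1%). *Cdkn2b*, which encodes the inhibitor p15, had one over its start site at 6.0, 11.3 and 10.6 at D0, W6 and W12, and the cyclin gene *Ccnd2* (8.66 and 5.37), the proliferation marker *Mki67* (6.0 and 8.35) and *Myc* (5.73 and 4.54) had W6-only peaks. In each list the share by peak lay between 4.17% and 12.1%, around the 7.36% of all D0 peaks, for the 12 lists without other cell types, except for the RUNX genes at 0.

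The labelled cell type was checked against its markers. Each of *Krt5*, *Krt14*, *Trp63*, *Itga6*, *Itgb4* and *Col17a1*, which mark epidermal stem cells, had an H3K27ac peak within 2500 bp of a start site at all 5 time points. Such peaks were found for 0 to 2 of 14 immune, 1 or 2 of 8 melanocyte, 0 to 2 of 11 fibroblast and 1 to 3 of 10 endothelial markers, and the W12 list had the highest count of each kind, tied for melanocyte markers with W1 and W6. At W12 these genes were *Cd207* and *Aif1* (immune), *Mitf* and *Pmel* (melanocyte), *Dcn* and *Vim* (fibroblast) and *Pecam1*, *Cdh5* and *Emcn* (endothelial). The paper reports *Vim* as directly induced by SOX9 in cultured EpdSCs, so its peak need not come from fibroblasts. Without *Vim* the fibroblast count at W12 would equal those of D0, W1 and W6. The W12 list also held the most peaks of the 5 lists, 33985. By peak, 2 of 9 immune (22.2%), 1 of 8 melanocyte (12.5%), 3 of 11 fibroblast (27.3%) and 0 of 13 endothelial D0 peaks were regained, beside 7.36% of all D0 peaks. These 6 peaks lay by *Ptprc* (5.33 at D0, 5.96 at W6, 274121 bp from its start site), *Aif1* (4.0 at D0, 4.96 at W12), *Mitf* (3.33 and 4.25) and, with 3 peaks, *Thy1* (8.66, 5.33 and 5.33 at D0, each 4.96 at W12). All but the one by *Ptprc*, which lay 81 bp from a W2 peak, were regained at W12 only. The part of other cells in the return of peaks was not tested.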

How the data were processed

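MINT-ChIP data of 38 samples were considered, of which 12 were H3K27ac, 12 H3K4me1 and 12 total H3 of skin and 2 H3K4me1 of culture. Per the study's methods and the submitters' processing notes, the authors split reads by barcode, trimmed them with Skewer, aligned them to GRCm38/mm10 with Bowtie2 2.2.9, took out duplicates with Picard and pooled replicates with SAMtools 1.9. MACS2 2.1.1 then called H3K27ac peaks, and epic2 the H3K4me1 domains of skin. A q setting stands in the name of the W12 H3K27ac list alone, and other caller settings were not given in the sources used here. The smallest −log10 q lay between 1.30 and 1.39 in all 5 H3K27ac lists. The culture lists have a broad-peak layout, and their condition was read from the list names. In the deposited H3K27ac lists each peak has an integer score, its fold enrichment as a ratio to the local background, and a −log10 q. The deposited H3K4me1 lists of skin give a p-value per domain. Replicates are pooled in each list. Total H3 and 14 files of barcodes were not used here.

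Intervals on 21 chromosomes were compared with Python 3.11.15, pandas and SciPy. Overlap meant 1 bp, start sites came from the GENCODE M21 basic set, and sequences from the GRCm38 reference, with windows of 300 bp for motifs. Genes were assigned by the nearest protein-coding start site at any distance, which need not be the regulated gene. Depth was recovered from the spacing of fold enrichments, on which 82.3% to 95.9% of the peaks of a list lay. Interval and depth functions were tested on simulated data. Named genes were, per class, the 5 members with the highest D0 score, the 5 genes nearest to most members, and up to 4 genes per gene list by D0 score. A gene that this rule names is not reported here. The members, gene lists, motifs and comparisons were chosen with earlier results of these data known. No p-values were computed, since each list is 1 pooled sample. Alternatives covered the overlap, the threshold, the lists and windows, and their effect is given at the end.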

Additional observations from a re-analysis of the deposited data

How the results depend on the processing

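No paired analysis was possible because each list pools its replicates, and for the same reason no replicate could be left out. Under 18 alternatives, 125 values were recomputed for 14 results. None changed direction, 60 stayed inside the 95% interval of the reported value (counts: within 1.5 times) and 65 moved further. The cause was not tested for any of them. The values that moved follow by alternative.

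With an overlap of 50% of the shorter interval, W6 only made up 51.0% and W12 only 30.9% of members, H3K4me1 was kept in 86.3% (7.40 points above D0-only peaks; W6 only 4.44 points above W12 only), 65.7% were distal and 25.1% exceeded the median D0 fold. With −log10 q of at least 3 in all H3K27ac lists these values were 52.1%, 28%, 90.1%, 4.04 points, 2.96 points, 60.6% and 18.6%, the both class was 19.9% and the distal gap between W12 only and W6 only 27.5 points. With that threshold at D0, W6 and W12 only, 1238 members by 1075 genes remained in number, with 51.9% W6 only, 30.7% W12 only, H3K4me1 differences of 4.37 and 4.47 points, 62.1% distal, a distal gap of 27.3 points and 17.9% above the median fold. Without W1 or W2 peaks within 1000 bp there were 1434 members, 44.3% W6 only and 38.5% W12 only, 85.1% with H3K4me1 (11.8 points), 71.1% distal and 25.5% above the median fold. With loss judged at W2 alone there were 3935 members by 2775 genes, 28.6% W12 only and 23.0% both, 91.0% with H3K4me1 (class difference 4.35 points), 65.9% distal and 28.8% above the median fold. Joining peaks gave an H3K4me1 difference of 11.8 points, 71.4% distal and 16.4% above the median fold. The top 25000 peaks per list gave 45.8% W6 only, H3K4me1 differences of 4.12 and 3.53 points, 62.7% distal, a distal gap of 28.7 points and 23.9% above the median fold. Domains over at least 50% of the peak gave 85.9% with H3K4me1, and in culture a difference of 17.2 points. Distal limits of 1000 and 10000 bp gave 75.7% and 43.0%, the latter with a gap of 16.4 points. Motif windows of 200 and 500 bp gave AP1 differences of 2.73 and 10.2 points, and 500 bp a GATA difference of -5.03 points.

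After seeing the data, 2 alternatives were added. The D0 peaks whose scaled pileup reached the smallest called one gave H3K4me1 differences of 6.21 and 3.74 points, 65.6% distal, a distal gap of 25.1 points and 15.8% above the median fold. Peaks with unmasked summits gave 90.3% with H3K4me1, a class difference of 2.95 points and 66% distal. Depth limits the W1 list most.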
